A study of Gallus gallus with 24 samples.

Results

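HSPB1, HSPB8, CRYAB and BAG3 encode 3 small heat shock proteins and the cochaperone that links them to HSP70 and to autophagy. The rows of the deposited expression table carrying these 4 symbols were taken, 4 of 16779 genes, each with 1 identifier, and all 4 passed the filter on low counts that kept 13742 genes. Hypothalamus was taken from 24 Ross 308 broiler chickens at 42 days of age, 1 library per bird and 6 birds per group. Of the 12 birds at 24 °C, 6 ate a basal diet and 6 ate that diet supplemented with 1% L-citrulline, and the 12 birds at 35 °C were divided between the diets in the same way. Relative humidity was 60% at both temperatures, to which birds were assigned on day 28. Each group had 6 replicates of 12 chickens with 1 bird sampled from each, so that p-values measure the spread between such birds. Sex is not among the labels.

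Small heat shock proteins share an alpha-crystallin domain and hold unfolding proteins in a soluble state without using ATP. HSP70 chaperones then refold the clients, or BAG3, bound to HSPB8 and to HSP70, passes them to autophagy. Heat shock factors switch on HSPB1, CRYAB and BAG3 in many heated cell types, and in the mammalian brain CRYAB is mainly a glial transcript, strong in oligodendrocytes, the cells that make myelin.

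In these birds none of the 4 genes passed the test for heat, for L-citrulline or for their interaction. CRYAB was among the most abundant transcripts of the hypothalamus and varied from bird to bird together with myelin genes such as MBP, CNP and UGT8. BAG3 varied from bird to bird together with HSPA8, the constitutive cytosolic HSP70 to which its protein binds. HSPA8 had the highest correlation with BAG3 of 13741 genes, a description without a test. HSPB8 had an unadjusted interval above 0 for L-citrulline at 35 °C and for the interaction of heat and diet, and neither passed after adjustment over all genes. HSPB1 was close to the detection limit in every group.

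Libraries held 12635239 to 15001037 counts over genes. Genes of the W chromosome, carried by hens, were high in 12 libraries (mean log2 CPM of 32 genes 4.04 to 4.30, CPM being counts scaled to library size) and low in the other 12 (-2.52 to -2.06). High-W libraries numbered 2 of 6 in each basal group and 4 of 6 in each L-citrulline group. Markers of the hypothalamus were present in every group, with a summed level of 9 genes between 768 and 6666 CPM. Most of that sum was AVP, with 8616 to 94127 counts in a library. NPY, next by highest count, had 534 to 2832. Other markers were close to 0 in some birds. The lowest counts were 0 for PMCH, 1 for POMC, 4 for HCRT and 5 for NKX2-1. In such bulk tissue, a different number of cells of one type and a different amount of RNA per cell cannot be told apart.

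The 4 genes lie on 4 chromosomes of build GRCg6a, as the deposited table gives them. HSPB1 (ENSGALG00000001926) is at 19:4403291-4405344 on the minus strand, and HSPB8 (ENSGALG00000007383) at 15:10006078-10008129 on the minus strand. CRYAB (ENSGALG00000007945) is at 24:6239995-6246232 on the plus strand, within the span of HSPB2, another small heat shock protein gene, on the minus strand (24:6227008-6259713). BAG3 (ENSGALG00000009433) is at 6:31229092-31246998 on the plus strand and overlaps no other gene. Whether counting used the strand is not given in the sources used here, so reads of CRYAB and HSPB2 cannot be told apart with certainty. HSPB2 had mean levels of 3.71 to 4.29 CPM in the 4 groups, far below CRYAB. An unnamed gene antisense to HSPB1 (ENSGALG00000051520) had at most 1 count in any library.

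Levels of different genes were compared per transcript length, as FPKM. CRYAB, a chaperone of intermediate filaments best known from the lens, had a mean level of 170.94 FPKM over the 24 birds and ranked 305 of 13742 genes. BAG3 followed at 32.5 FPKM (rank 2680), HSPB8, its direct partner, at 17.8 FPKM (rank 4737), and HSPB1, the classical heat-inducible small heat shock protein, at 0.735 FPKM (rank 12933). CRYAB was above BAG3 in 24 of 24 birds, by a ratio of 2.59 to 8.01, and their FPKM ranges did not overlap. BAG3 was above HSPB8 in 24 of 24 birds as well, by a ratio of 1.23 to 3.16 with a median of 1.76, although their ranges over all birds overlapped. HSPB8 was above HSPB1 by a ratio of at least 5.44 in every bird. The order CRYAB, BAG3, HSPB8, HSPB1 was thus that of every single bird.

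HSPB1 differed most between birds relative to its level, with a coefficient of variation of 70.5% in CPM over the 24 birds. Counting error alone gives 33.2% at its 2 to 24 counts per library. The coefficient was 25.4% for HSPB8 (counting error 8.33%), 22.7% for CRYAB (counting error 1.6%) and 16.4% for BAG3 (counting error 3.17%). The 500 genes nearest in CPM to CRYAB had a median coefficient of 8.64%, and CRYAB stood at percentile 92.0 among them. BAG3 stood at percentile 86.6 of its own 500 neighbours, whose median was 8.97%, HSPB1 at 83.0 (median 52.0%) and HSPB8 at 79.6 (median 16.5%). Each of the 4 was thus more variable between birds than the median gene of like abundance.

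The first question was what 35 °C did to these genes. HSPB1, which heat induces strongly in many cells, ranged from 0.150 to 1.03 CPM in basal 24 °C birds (median 0.372) and from 0.288 to 1.83 CPM in basal 35 °C birds (median 0.850). On the L-citrulline diet it ranged from 0.286 to 1.46 CPM at 24 °C (median 0.453) and from 0.214 to 1.66 CPM at 35 °C (median 0.564). The ranges overlapped on both diets, and each group held at least 1 bird with 14 or more counts. The log2 fold change for heat was 0.90 ± 0.54 (SE) on the basal diet (95% confidence interval -0.22 to 2.02) and -0.089 ± 0.53 on the L-citrulline diet (-1.19 to 1.01). Neither passed (adjusted p = 0.9997 and 0.996, edgeR quasi-likelihood test with Benjamini-Hochberg adjustment), and at these counts both intervals leave room for large differences. The highest basal 24 °C bird, replicate 1 with 15 counts, moved the value on the basal diet most, to 1.31 when left out, and L-citrulline 35 °C replicate 4 with 24 counts moved that on the L-citrulline diet to -0.65.

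HSPB8, which forms a complex with BAG3, ranged from 6.96 to 13.9 CPM in basal 24 °C birds (median 11.1) and from 6.48 to 11.7 CPM in basal 35 °C birds (median 9.33). On the L-citrulline diet it ranged from 7.37 to 10.8 CPM at 24 °C (median 10.5) and from 7.51 to 16.9 CPM at 35 °C (median 12.5). The L-citrulline 35 °C group held the highest birds, replicates 1 and 6 at 16.9 and 15.8 CPM, and also one of the lower ones, replicate 5 at 7.51 CPM, so that all groups overlapped. The log2 fold change for heat was -0.28 ± 0.19 on the basal diet (95% confidence interval -0.67 to 0.10) and 0.36 ± 0.19 on the L-citrulline diet (-0.027 to 0.74), neither passing by edgeR (adjusted p = 0.9997 and 0.755).

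CRYAB ranged from 237 to 389 CPM in basal 24 °C birds (median 330.35) and from 240.03 to 349.77 CPM in basal 35 °C birds (median 263). On the L-citrulline diet it ranged from 224 to 329 CPM at 24 °C (median 246) and from 148 to 428 CPM at 35 °C (median 305). Basal 24 °C birds fell into 3 high ones (replicates 1, 3 and 4, at 376, 389 and 385 CPM) and 3 at 284 CPM or less, while the L-citrulline 35 °C group held both the lowest bird of the study, replicate 3, and the highest, replicate 4. The log2 fold change for heat was -0.22 ± 0.18 on the basal diet (95% confidence interval -0.59 to 0.15) and 0.21 ± 0.18 on the L-citrulline diet (-0.15 to 0.58). Without L-citrulline 35 °C replicate 3 the latter was 0.35, still not past the edgeR test (adjusted p = 0.404).

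BAG3 ranged from 66.0 to 89.8 CPM in basal 24 °C birds (median 75.3) and from 53.9 to 90.02 CPM in basal 35 °C birds (median 69.4). On the L-citrulline diet it ranged from 52.6 to 99.2 CPM at 24 °C (median 67.8) and from 62.9 to 89.5 CPM at 35 °C (median 75.9). The highest and the lowest of the 24 birds were both in the L-citrulline 24 °C group and the ranges of the other groups lay inside that of this group. The log2 fold change for heat was -0.10 ± 0.13 on the basal diet (95% confidence interval -0.38 to 0.17) and 0.12 ± 0.13 on the L-citrulline diet (-0.16 to 0.40). Without basal 35 °C replicate 2 the former was -0.18, and without L-citrulline 24 °C replicate 2 the latter was 0.24. Averaged over diets it was 0.0067 ± 0.095 (-0.19 to 0.20), the narrowest interval of the 4 genes.

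**Figure D1:**
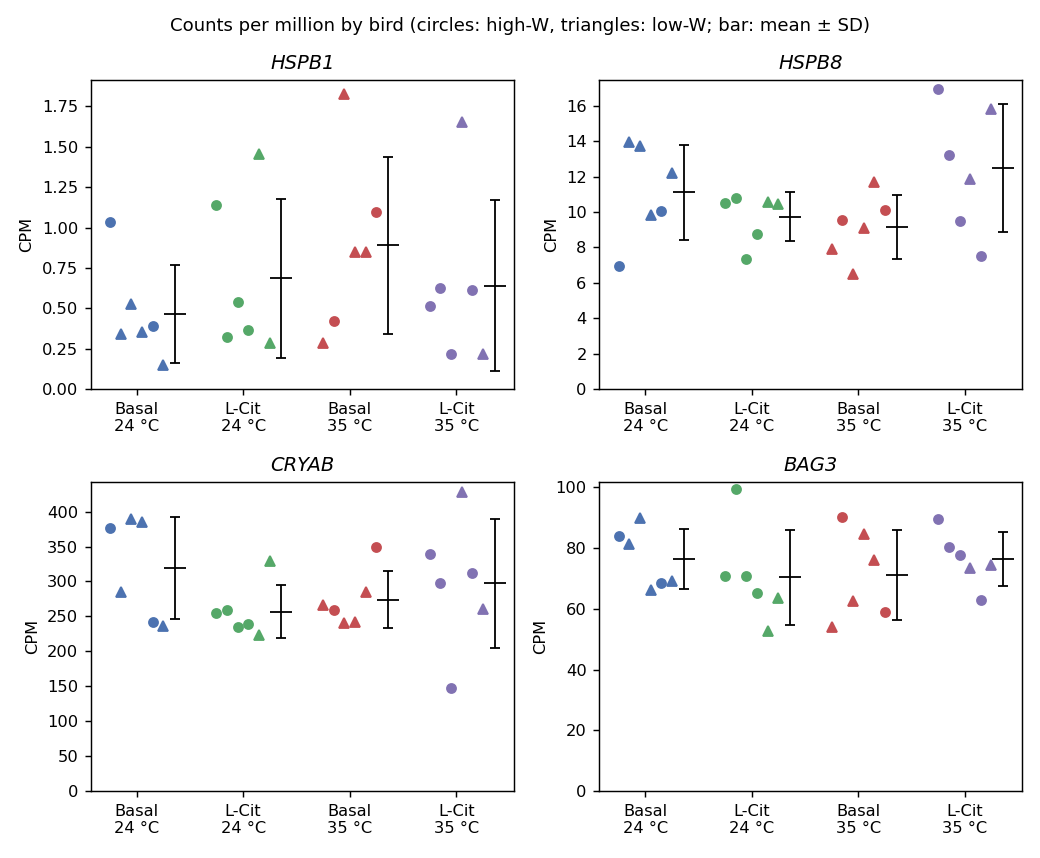
CPM (linear axis) of HSPB1, HSPB8, CRYAB and BAG3 in each of 24 birds, by diet and temperature, with the group mean and SD beside the points. Circles are high-W and triangles low-W libraries, and for each gene the 4 groups overlap, with the lowest CRYAB bird (148 CPM) and the highest (428 CPM) both in the L-citrulline 35 °C group.

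The share of all tested genes called for heat was 0% on the basal diet, 0% on the L-citrulline diet and 0% averaged over diets, so that the absence of a call for the 4 genes did not set them apart. At unadjusted p under 0.05, edgeR gave 507 genes (3.69%), 922 (6.71%) and 416 (3.03%) in these comparisons, none of the 4 among them. DESeq2 called 0, 6 and 0 genes and limma voom 0, 1 and 0. Groups without overlap in CPM were found for 0 of the 4 genes, beside 0.218% of all genes for heat on the basal diet and 0.233% on the L-citrulline diet. The averaged log2 fold change for heat was 0.41 ± 0.38 for HSPB1 (95% confidence interval -0.38 to 1.19), 0.037 ± 0.13 for HSPB8 (-0.24 to 0.31) and -0.0023 ± 0.13 for CRYAB (-0.26 to 0.26). The interval of HSPB1 was the widest of the 4.

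Other genes of the same pathways were read beside them in the averaged heat comparison, in which 52.3% of all tested genes were higher at 35 °C. Of 9 genes listed by symbol as other small heat shock proteins, 2 were tested and both were lower without passing. HSPB2 was at -0.11 ± 0.16. HSPB11, named in that series but a part of the intraflagellar transport machinery, was at -0.16 ± 0.077. Several listed genes, HSPB6 and HSPB9 among them, had no row under their symbols, so that this reading of the family is partial. HSPB3, HSPB7 and CRYAA, the alpha-A partner of CRYAB in the lens, had at most 10, 18 and 3 counts in a library and were not tested. Of the other BAG family genes, which share the HSP70-binding domain, BAG1 was at 0.046 ± 0.062, BAG2 at -0.037 ± 0.079, BAG4 at -0.011 ± 0.050 and BAG5 at -0.027 ± 0.047. Among 15 partners of BAG3 and genes of chaperone-assisted autophagy, 3 were higher, 12 were lower and 0 passed, with a median of -0.032 and a range from FLNA, the actin cross-linker filamin A (-0.16 ± 0.11), to SYNPO, synaptopodin (0.057 ± 0.23).

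The heat shock factors, the transcription factors that bind the promoters of chaperone genes, did not pass either. HSF1, the main heat-responsive factor in mammals, was at 0.037 ± 0.10, HSF2 at -0.078 ± 0.040, HSF3, which mediates much of the heat shock response in avian cells, at -0.0022 ± 0.040, and HSF4 at 0.097 ± 0.25. Of 14 heat-inducible chaperones and cochaperones listed, HSPA2 had no row and 13 were tested. Of these 13, 2 were higher, 11 were lower and 0 passed, with a median of -0.022. They ranged from SERPINH1, the collagen chaperone HSP47 (-0.18 ± 0.14), to AHSA1, an activator of HSP90 (0.017 ± 0.046). The median over all tested genes was 0.0035. These are differences in transcript level on day 42, in birds at 35 °C from day 28.

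**Figure D2:**
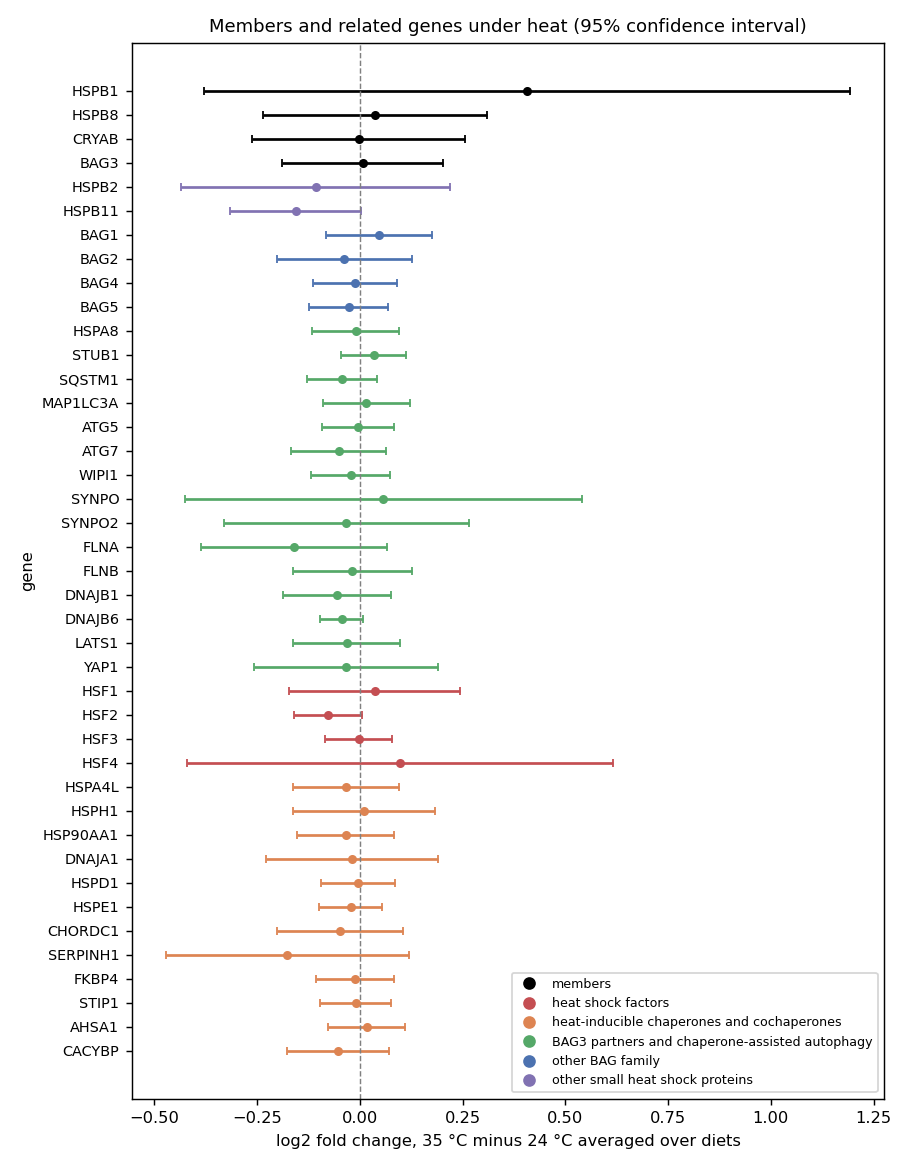
Log2 fold change at 35 °C against 24 °C, averaged over diets, for the 4 genes and the tested genes of 5 related lists, with 95% confidence intervals from edgeR. The intervals of BAG3 (-0.19 to 0.20) and of the chaperone and heat shock factor genes lie around 0, and that of HSPB1 (-0.38 to 1.19) is the widest.

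The second question was what the L-citrulline supplement did, at each temperature. L-citrulline is a precursor of arginine, from which nitric oxide is made. HSPB8 was the only one of the 4 with an interval that excluded 0, at 35 °C, with mean levels of 12.5 ± 3.63 CPM (SD, n = 6) on L-citrulline and 9.14 ± 1.80 CPM on the basal diet. Its log2 fold change was 0.45 ± 0.19 (95% confidence interval 0.063 to 0.84), with an unadjusted p of 0.0244 and an adjusted p of 0.747 by edgeR. It was rank 394 of 13742 genes by p, and the ranges overlapped, since the L-citrulline group spanned 7.51 to 16.9 CPM and the basal group 6.48 to 11.7 CPM. The authors' deposited table gives it a log2 fold change of 0.45 with an unadjusted p of 0.0424 for the same comparison. Left out in turn, the 24 libraries gave 0.34 to 0.56, the lowest without L-citrulline 35 °C replicate 1. At 24 °C the log2 fold change of HSPB8 on L-citrulline was -0.19 ± 0.19.

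The other 3 genes had intervals that held 0 at both temperatures. CRYAB was at 257 ± 37.9 CPM on L-citrulline and 319 ± 72.7 CPM on the basal diet at 24 °C (SD, n = 6), a log2 fold change of -0.31 ± 0.18 (95% confidence interval -0.68 to 0.054, adjusted p = 0.762 by edgeR), and its value at 35 °C was 0.12 ± 0.18. In the authors' deposited table CRYAB has -0.31 at 24 °C, with an unadjusted p of 0.0598. Of the 6 supplemented birds at 24 °C, 5 lay between 224 and 259 CPM and replicate 6 at 329 CPM. BAG3 was at -0.12 ± 0.13 at 24 °C and 0.10 ± 0.13 at 35 °C, and HSPB1 at 0.54 ± 0.55 and -0.45 ± 0.52. Single birds moved these values: BAG3 at 24 °C was -0.24 without L-citrulline 24 °C replicate 2 and at 35 °C 0.18 without basal 35 °C replicate 2. HSPB1 at 24 °C was 0.94 without basal 24 °C replicate 1 and at 35 °C -1.015 without L-citrulline 35 °C replicate 4, and CRYAB at 35 °C was 0.26 without L-citrulline 35 °C replicate 3.

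Of all tested genes 0% were called for L-citrulline at 24 °C, 0% at 35 °C and 0% averaged over temperatures, with 958 (6.97%), 884 (6.43%) and 753 (5.48%) at unadjusted p under 0.05 by edgeR. HSPB8 at 35 °C was 1 of those 884. DESeq2 called 8, 1 and 0 genes and limma voom 0, 0 and 0, none of them among the 4. Groups did not separate in CPM for any of the 4, beside 0.306% of genes at 24 °C and 0.138% at 35 °C. Averaged over temperatures the log2 fold changes were 0.041 ± 0.37 for HSPB1, 0.13 ± 0.13 for HSPB8, -0.096 ± 0.13 for CRYAB and -0.0094 ± 0.095 for BAG3.

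The comparisons of heat on each diet and of L-citrulline at each temperature share groups, so that a high or low group enters several of them. The interaction, heat on the L-citrulline diet minus heat on the basal diet, was 0.64 ± 0.26 for HSPB8 (95% confidence interval 0.095 to 1.19, unadjusted p = 0.0234, adjusted p = 0.617 by edgeR). For CRYAB it was 0.43 ± 0.25, for BAG3 0.22 ± 0.19 and for HSPB1 -0.99 ± 0.76, none of which passed. Leaving out 1 bird moved BAG3 to 0.34 (without L-citrulline 24 °C replicate 2) and HSPB1 to -1.55 (without L-citrulline 35 °C replicate 4). Of all genes 0% were called by edgeR, with 1039 (7.56%) at unadjusted p under 0.05, and DESeq2 called 2 and limma voom 0. Heat and L-citrulline together, against neither, gave 0.45 ± 0.56 for HSPB1, 0.17 ± 0.19 for HSPB8, -0.098 ± 0.18 for CRYAB and -0.0028 ± 0.13 for BAG3. In that comparison 0% of genes were called by edgeR, 533 (3.88%) had an unadjusted p under 0.05, and DESeq2 and limma voom called 0 and 0. Groups did not overlap in CPM for 0 of the 4 genes, beside 0.182% of all genes.

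**Figure D3:**
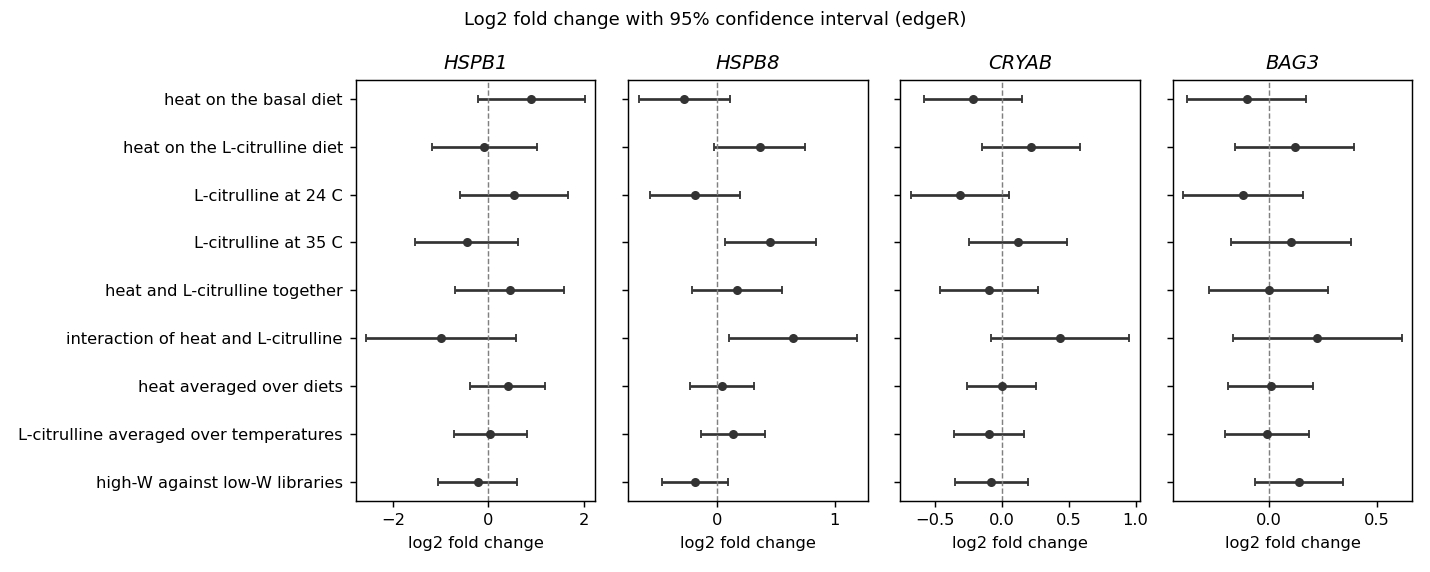
Log2 fold change with 95% confidence interval from edgeR for each of the 4 genes (one panel each, with its own axis) in 8 comparisons of diet and temperature and in high-W against low-W libraries. HSPB8 has intervals above 0 for L-citrulline at 35 °C (0.063 to 0.84) and for the interaction (0.095 to 1.19), and every other interval in the panels holds 0.

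High-W and low-W libraries were compared because the groups held unequal numbers of them. BAG3 was at 0.14 ± 0.099, HSPB8 at -0.19 ± 0.14, CRYAB at -0.080 ± 0.13 and HSPB1 at -0.23 ± 0.40, high-W minus low-W, and 0 of the 4 passed beside 508 genes, 3.7% of those tested by edgeR. The tested genes included the 32 W genes that defined the split, so that the difference in those was fixed in advance. Genes of the Z chromosome, the other sex chromosome, were not set apart among the 508. DNAJA1, an HSP40 cochaperone of HSP70, was the only related gene that passed, lower in high-W libraries (-0.45 ± 0.058, adjusted p = 4.11e-06 by edgeR). Whether the chromosome on which DNAJA1 lies has a part in this was not tested. For heat averaged over diets DNAJA1 had a log2 fold change of -0.019 ± 0.10. Its mean level was 239 CPM at 24 °C and 235 CPM at 35 °C on L-citrulline, and 270 and 268 CPM on the basal diet. The L-citrulline groups held more high-W libraries, and the part of that split in the means was not tested.

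Across birds CRYAB followed the genes of myelin. The mean standardised level of 4 oligodendrocyte genes had a Pearson r of 0.818 with CRYAB over 24 birds (adjusted p = 0.00048 by permutation, over 48 pairs of gene and cell type list) and a Spearman rho of 0.740 (adjusted p = 0.00288 by permutation). The unadjusted p of 1e-05 for r is the smallest that the 100000 permutations can give. Without the 2 birds farthest from the median of that list r was 0.731, and on deviations from the group means it was 0.895. By gene, r was 0.840 for CNP, a myelin enzyme (rank 38 of 13741 genes), 0.810 for UGT8, which makes the myelin lipid galactosylceramide (rank 84), and 0.798 for MBP, myelin basic protein (rank 113).

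The birds at the ends of the CRYAB range were at the ends of the myelin range. L-citrulline 35 °C replicate 3, lowest in CRYAB at 148 CPM, had the lowest summed level of the 4 oligodendrocyte genes, 15800 CPM. Replicate 4 of the same group, highest in CRYAB at 428 CPM, had the highest, 63060 CPM. Replicate 3 differed in other lists too. It was lowest in summed astrocyte (4990 CPM), pericyte and smooth muscle (379 CPM), meninges and fibroblast (292 CPM) and region marker genes (768 CPM). In neuronal genes it was highest (5868 CPM). In basal 24 °C birds the summed level was 27760 to 46020 CPM, in L-citrulline 24 °C birds 30350 to 58380 CPM, in basal 35 °C birds 22340 to 48380 CPM, and in L-citrulline 35 °C birds 15800 to 63060 CPM. Of 8 oligodendrocyte genes listed, 4 were tested and none passed in a treatment comparison. Their median log2 fold change was 0.10 for L-citrulline at 24 °C and 0.31 at 35 °C. On L-citrulline 4 of 4 were higher at both temperatures, beside 52.4% of all genes at 24 °C and 51.8% at 35 °C. Each of the 4 had r of 0.796 or more with CRYAB, so that they are not 4 separate results. At 24 °C the median summed level was 38810 CPM on L-citrulline and 37050 CPM on the basal diet. L-citrulline 24 °C replicate 6, at 58380 CPM, enters the former group. For heat averaged over diets the median log2 fold change of the 4 genes was -0.0034, with 2 of 4 higher.

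Since CRYAB moved with that list, the fit was repeated with the list as a covariate, a step chosen after the data had been seen. A smaller SE and narrower intervals for CRYAB follow from that choice and are no separate support. The list also had a median log2 fold change of 0.10 (24 °C) and 0.31 (35 °C) for L-citrulline, none of its genes passing. Diet values from this fit are thus not separate from the list. The SE of CRYAB in it fell from 0.18 to 0.085 for L-citrulline at 24 °C. The log2 fold change was -0.35 ± 0.085 (95% confidence interval -0.53 to -0.18, unadjusted p = 0.000391, adjusted p = 0.245 by edgeR), and thus CRYAB did not pass there either. Heat averaged over diets gave 0.018 ± 0.060 for CRYAB in this fit (-0.11 to 0.14). L-citrulline averaged over temperatures gave -0.23 ± 0.061 (-0.36 to -0.10, unadjusted p = 0.00106, adjusted p = 0.903 by edgeR). Both treatments together gave -0.21 ± 0.085 (-0.39 to -0.035, unadjusted p = 0.0207, adjusted p = 0.9555 by edgeR). At 35 °C the value of L-citrulline was -0.11 ± 0.088, opposite in sign to the 0.12 ± 0.18 without the covariate.

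The 5 named genes most like CRYAB over the 24 birds were CD151, a tetraspanin of cell adhesion (r = 0.893), the endocytic adaptor EPS15 (0.890), CDC42EP4, an effector of the GTPase CDC42 (0.877), RASSF2 (0.876) and PLLP, the myelin-associated protein plasmolipin (0.874). The most opposed were MTURN (-0.865) and the chromatin reader ZMYND11 (-0.860). These genes were picked as the extremes of 13741, and their r is a description without a test. Over all genes the 5th to 95th percentiles of r with CRYAB ran from -0.581 to 0.616, wider than for BAG3 (-0.446 to 0.490), HSPB8 (-0.393 to 0.369) and HSPB1 (-0.341 to 0.352). HSPB2, which overlaps CRYAB in position, had r = 0.539 with it.

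Endothelial genes also moved with CRYAB, with r = 0.646 (adjusted p = 0.0211 by permutation) and rho = 0.617 (adjusted p = 0.0248), and r = 0.484 without the 2 farthest birds. Of the 6 endothelial genes 5 had a positive r with CRYAB, the range being -0.013 to 0.627. L-citrulline 35 °C replicate 3 had the lowest mean standardised level of both this list (-1.46) and the oligodendrocyte list (-2.85). Whether the endothelial relation is separate from that with oligodendrocyte genes was not tested. For ciliated ependyma, the lining of the ventricles, rho was -0.568 (adjusted p = 0.0438 by permutation), while r was -0.421 (adjusted p = 0.220). On deviations from the group means that r was -0.303. For L-citrulline at 24 °C, 7 of 7 ependyma genes were higher, beside 52.4% of all genes, and 0 passed. All 7 had an unadjusted p under 0.05 by edgeR, beside 6.97% of all genes. CRYAB was at -0.31 in that comparison, and the part of such group differences in the relation was not tested. For astrocytes, which also make CRYAB in mammals, r was 0.167 and rho -0.208, with SLC1A2 and SLC1A3, the glial glutamate transporters, at r = -0.557 and -0.514 and S100B and GFAP at r = 0.630 and 0.507. The astrocyte list thus held values in both directions.

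BAG3 followed HSPA8. Of 13741 other genes HSPA8, at 2837 CPM on average, had the highest r with BAG3, 0.833 over 24 birds and 0.856 on deviations from the group means. The bird lowest in BAG3, L-citrulline 24 °C replicate 5 at 52.6 CPM, was also the lowest in HSPA8, at 2338 CPM. That bird also had the highest summed levels of pericyte and smooth muscle genes (1639 CPM) and of meninges and fibroblast genes (1646 CPM). It was highest in choroid plexus genes as well (2035 CPM), and the part of such tissue in its BAG3 and HSPA8 levels was not tested. The bird highest in BAG3, L-citrulline 24 °C replicate 2 at 99.2 CPM, was also the highest in HSPA8, at 3275 CPM. Next came ANKRD50, an ankyrin-repeat protein of endosomal recycling (0.776), MAP1LC3A, an LC3 protein of the autophagosome membrane (0.776), TMEM53 (0.771) and INPP5F, a phosphoinositide phosphatase (0.770). INPP5F is also the next annotated gene downstream of BAG3 on the same strand, 21252 bases away (6:31268250-31304876). The most opposed were NFATC1, a calcium-regulated transcription factor (-0.780), and CHRM4, a muscarinic acetylcholine receptor (-0.774). Like those of CRYAB, these genes and the companions of HSPB8 and HSPB1 named below were picked as the extremes of 13741. Their r is a description without a test.

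**Figure D4:**
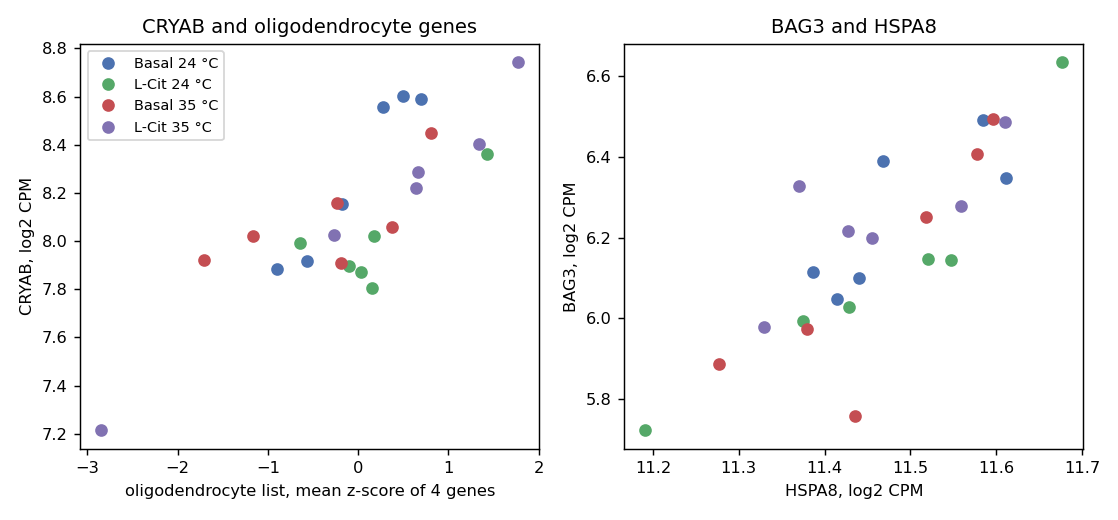
Left, CRYAB (log2 CPM) against the mean z-score of 4 oligodendrocyte genes. Right, BAG3 against HSPA8 (both log2 CPM). Each point is 1 of 24 birds, coloured by diet and temperature. Birds of all 4 groups lie along both trends (r = 0.818 and 0.833), and L-citrulline 35 °C replicate 3 is alone at the lower left of the first.

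The other chaperones also lay on the positive side of BAG3. Of 13 heat-inducible chaperones and cochaperones 13 had a positive r with it, from 0.068 to 0.743 with a median of 0.44, where the median over all genes was -0.023. The highest were CACYBP, a binding protein of calcyclin and of the ubiquitin ligase SIAH1 (0.743), HSPA4L, an HSP110-type exchange factor of HSP70 (0.686), the cytosolic HSP90AA1 (0.617) and the mitochondrial chaperonin HSPD1 (0.617). STUB1, the ubiquitin ligase CHIP that acts on HSP70 clients, had 0.565. Of the BAG family, BAG2 and BAG4 had 0.664 and 0.574, BAG1 had 0.162 and BAG5 had -0.099. The 15 partners of BAG3 and genes of chaperone-assisted autophagy, HSPA8, MAP1LC3A and STUB1 among them, were mixed. Of these 15, 8 had a positive r with BAG3, with a median of 0.0625 and a range from -0.389 to 0.833. SQSTM1, the autophagy receptor p62, had -0.385. CRYAB had 6 of the 13 heat-inducible chaperones and cochaperones positive, with a median of -0.0054. HSPB8 had 8 positive with a median of 0.094, and HSPB1 had 2 positive with a median of -0.19. These counts describe birds of 1 study whose chaperone genes share libraries, and differences between the 4 genes in them were not tested.

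No cell type list passed with BAG3. By rho the closest were neurons, with rho = 0.518 (adjusted p = 0.0842 by permutation) and r = 0.476 (adjusted p = 0.181). Astrocytes followed, with rho = -0.498 (adjusted p = 0.0991) and r = -0.428 (adjusted p = 0.214). By r the largest in size was ciliated ependyma, with r = -0.489 (adjusted p = 0.181 by permutation) and rho = -0.415 (adjusted p = 0.224). Of the 7 ependyma genes 0 had a positive r with BAG3, with a median of -0.40. Of the 8 neuronal genes 6 had a positive r with BAG3, with a median of 0.24, from -0.475 for GAD2, an enzyme of GABA synthesis, to 0.709 for NEFL, a neurofilament. Of the 7 astrocyte genes 3 were positive, with a median of -0.18, from -0.687 for SLC1A3 to 0.212 for AGT, angiotensinogen. The summed neuronal level ranged from 4394 to 5868 CPM over the 24 birds, and its part in the relation of BAG3 with HSPA8 was not tested.

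**Figure D5:**
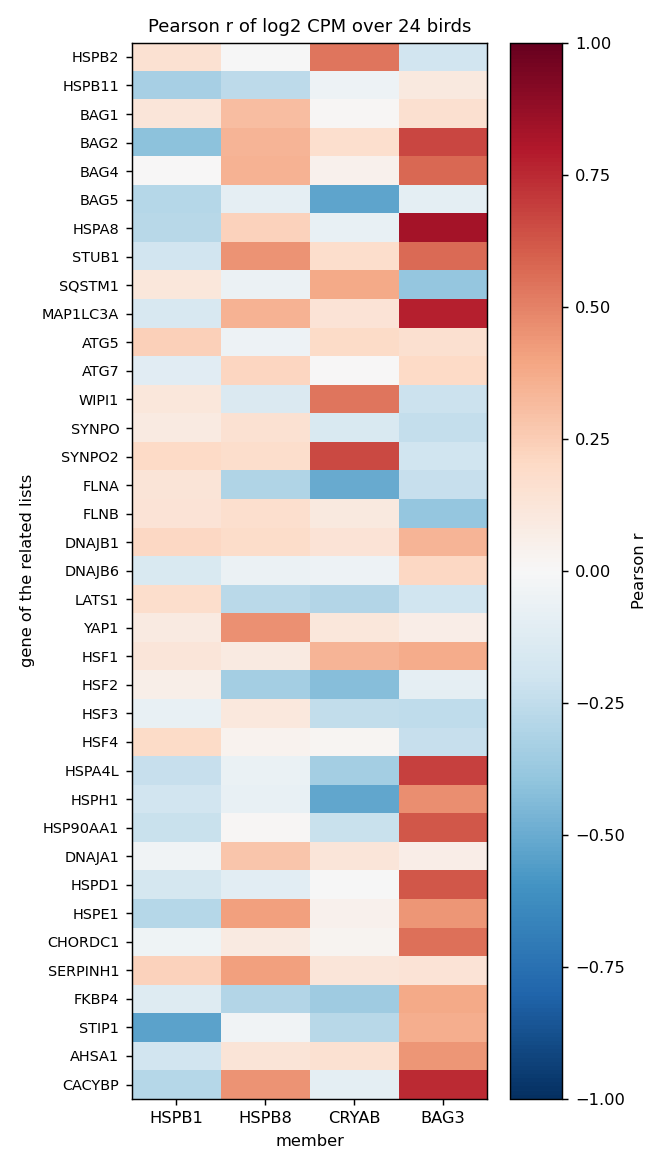
Pearson r over 24 birds (log2 CPM) between each of the 4 genes (columns) and the tested genes of 5 related lists (rows), from -1 (blue) to 1 (red). The BAG3 column is positive for each of the 13 heat-inducible chaperones and highest for HSPA8 (0.833). It is positive for 8 of the 15 partners and autophagy genes. The columns of the 3 small heat shock proteins are paler and mixed in sign.

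No pair of the 4 genes passed a test for varying together. Over the 6 pairs of the 4 genes the highest correlation was that of HSPB8 with BAG3, whose proteins form a complex, with r = 0.386 (p = 0.0624, adjusted p = 0.375 by permutation) and rho = 0.369 (adjusted p = 0.469). It was 0.263 without the 2 birds farthest from the median of HSPB8. The other 5 pairs ranged from -0.277 for HSPB1 with HSPB8 to 0.285 for HSPB1 with CRYAB, none passing. The log2 ratio of HSPB8 to BAG3 in FPKM was -0.88 ± 0.40 (SD, n = 6) in basal 24 °C, -0.91 ± 0.36 in L-citrulline 24 °C, -1.03 ± 0.32 in basal 35 °C and -0.73 ± 0.33 in L-citrulline 35 °C birds, and these spreads overlapped.

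HSPB8 had no single close companion. The named genes most like it were TNFRSF1A, a tumour necrosis factor receptor (r = 0.697), the transcription factor TCF15 (0.693), the RNA-binding RBMS1 (0.690), HS3ST5, a heparan sulfate sulfotransferase (0.690), and LITAF (0.684). The most opposed were TBCD, a tubulin-folding cofactor (-0.746), and the palmitoyltransferase gene ZDHHC22 (-0.686). With pericyte and smooth muscle genes its rho was 0.638 (adjusted p = 0.0235 by permutation) while r was 0.351 (adjusted p = 0.324). L-citrulline 24 °C replicate 5 stood apart there, with a summed level of 1639 CPM against 379 to 636 CPM in the other 23 birds, and r was 0.647 without the 2 farthest birds. With the hypothalamic region markers HSPB8 had rho = -0.598 (adjusted p = 0.0304 by permutation) and r = -0.452 (adjusted p = 0.213).

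The same lists were read in the comparison of diets at 35 °C. The summed level of the region markers, most of it AVP, had a median of 2306 CPM in L-citrulline 35 °C birds and 3577 CPM in basal 35 °C birds. Of the 9 genes, 8 were lower on L-citrulline and none passed. The pericyte and smooth muscle list had 8 of 8 genes higher in the same comparison, with a median log2 fold change of 0.14 and none passing. Of all tested genes 51.8% were higher there. Summed levels of the pericyte and smooth muscle list were 379 to 626 CPM in L-citrulline 35 °C and 478 to 546 CPM in basal 35 °C birds. No marker of either list was at 0 throughout. For L-citrulline at 24 °C, where HSPB8 was at -0.19, 7 of 8 pericyte and smooth muscle genes were higher (median 0.59). L-citrulline 24 °C replicate 5, at a summed level of 1639 CPM for that list, enters these means. By median the summed level was 512 CPM on L-citrulline and 539 CPM on the basal diet, so that the typical supplemented bird was not higher. Of the 9 region markers 6 were higher there (median 0.37), beside 52.4% of all genes. The part of both lists in the differences of HSPB8 was not tested.

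Among the genes most like HSPB1 were the deacetylase SIRT2 (r = 0.681), CLDN1, a claudin of tight junctions (0.648), ZBTB2 (0.639) and ERCC5, a DNA repair nuclease (0.635). The most opposed were PDHX, a part of the pyruvate dehydrogenase complex (-0.681), and LHX4-AS1 (-0.664). No cell type list passed with HSPB1, the largest being neurons at r = -0.387 (adjusted p = 0.276 by permutation) and rho = -0.355 (adjusted p = 0.357). With 2 to 24 counts in a library, its values carry more counting error than those of the other 3 genes, and the companions named rest on that.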

How the data were processed

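Hypothalamic RNA of 24 birds was sequenced. Per the file headers, the deposited expression table gives read counts per gene and the authors' FPKM. HISAT2, TopHat, HTSeq, DESeq and build GRCg6a are named in the submitters' processing notes. Their versions, and whether strand was used, are not stated there. The deposited comparison tables hold the authors' log2 fold changes and p-values, quoted only where named as theirs. Other deposited tables were not used here.

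Counts were filtered with filterByExpr (minimum count 10), scaled by TMM (factors 0.967 to 1.03) and fitted in R 4.3.3 in edgeR 4.0.16 with 1 mean per group (24 libraries, 20 residual degrees of freedom). Each contrast had a quasi-likelihood F test, its p-values being adjusted by Benjamini-Hochberg over 13742 genes and a threshold of 0.05. The SE is the absolute log2 fold change divided by the square root of F. Correlations used log2 CPM (prior count 2) with 100000 permutations. DESeq2 1.42.0, limma 3.58.1 voom, RLE scaling, no filter, a replicate block, a high-W covariate and leaving out each library were alternatives. Named genes are the 4 genes, for each the 5 most and 2 least correlated kept genes with a symbol, and of each related list the extremes for averaged heat, genes that passed and all genes of lists of 5 or fewer; others named beside them were chosen after their values were seen. Genes and lists were chosen with earlier results of these data known. Scripts were tested on simulated data. Listed genes without a row in the table (HSPB6, HSPB9, BAG6, FLNC, HSPA2 and others) were not analysed here. Of the genes that the naming rule or the lists cover, 2 are not reported here by name. No sequence is printed.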

Additional observations from a re-analysis of the deposited data

Results flagged for a closer look

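Within groups of 6 birds, 16 sets of CPM values (4 genes in 4 groups) were screened for a bird far from the others, and 2 were marked. Chance marks about 1 in 20 such sets if the values are normally distributed. For HSPB1, at 2 to 24 counts on a linear scale, that rate need not hold. HSPB1 in L-citrulline 35 °C replicate 4 was 1.66 CPM, against 0.214 to 0.626 CPM in the other 5 birds of the group. CRYAB in L-citrulline 24 °C replicate 6 was 329.31 CPM, against 224 to 259 CPM in the other 5. That bird also had the highest summed level of oligodendrocyte genes in its group, 58380 CPM, and the part of this in its CRYAB level was not tested.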

How the results depend on the processing

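None of the 4 genes passed in any comparison under any setting run. Genes called rose from 0 with DESeq2 for heat on the L-citrulline diet (6), L-citrulline at 24 °C (8) and at 35 °C (1) and the interaction (2), and for heat on the L-citrulline diet also with limma voom (1) and with the oligodendrocyte covariate added after the data were seen (1). Near-zero values changed sign. For HSPB1 under L-citrulline averaged over temperatures they were -0.038 with limma voom and -0.011 with the replicate block. With the oligodendrocyte covariate they were -0.13 for HSPB1 and 0.013 for BAG3 (L-citrulline averaged), -0.11 for CRYAB (L-citrulline at 35 °C), 0.010 for BAG3 (both treatments together), 0.018 for CRYAB and -0.0027 for BAG3 (heat averaged) and 0.033 for CRYAB (high-W against low-W).

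Leaving out each library in turn gave 0 to 1 genes called for heat on the L-citrulline diet and for L-citrulline at 24 °C. Ranges that crossed 0 were -0.65 to 0.26 for HSPB1 (heat on the L-citrulline diet), -0.014 to 0.26 for CRYAB (L-citrulline at 35 °C), and, for both treatments together, -0.11 to 0.85 for HSPB1, -0.23 to 0.040 for CRYAB and -0.056 to 0.049 for BAG3. For heat averaged they were -0.017 to 0.092 for HSPB8, -0.069 to 0.067 for CRYAB and -0.034 to 0.067 for BAG3. For L-citrulline averaged they were -0.24 to 0.24 for HSPB1 and -0.072 to 0.029 for BAG3, and for high-W against low-W -0.50 to 0.14 for HSPB1 and -0.15 to 0.016 for CRYAB. HSPB8 for L-citrulline at 35 °C kept its sign, with a lowest adjusted p of 0.227 by edgeR.

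Equal replicate numbers did not pair the birds: 14 of 36 same-number pairs had a correlation of deviations over 0.1, with a mean of -0.015, and 3 of 24 libraries matched their own number best. With the replicate block the genes called stayed at 0 in the 8 treatment comparisons. No pair of the 4 genes passed a correlation test on deviations from group means or on log2 FPKM. HSPB1 had 2 to 24 counts per library, with a counting error of 33.2% beside a spread between birds of 70.5%. The cause of the changes was not tested.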
